A study of Mus musculus with 13 samples.

Results

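The probes described here measure the transcripts of glutamate, GABA and glycine receptor subunits in primary cortical neurons exposed to rotenone, which blocks mitochondrial complex I. Members were all probes of the deposited signal table whose gene symbol names an AMPA (Gria), kainate (Grik), NMDA (Grin), delta (Grid) or metabotropic (Grm) glutamate receptor, a GABA-A (Gabra, Gabrb, Gabrg, Gabrd) or GABA-B (Gabbr) receptor, or a glycine receptor (Glra, Glrb). They came to 55 probes for 43 genes, out of 24613 probes with a signal for 17083 gene symbols in all. The spelling rule also takes in the gene of delphilin, a synaptic scaffold protein that is no receptor subunit itself. The 13 RNA samples came from neocortical cultures of Swiss albino mouse fetuses at gestational day 15 or 16, at day 5 of culture, and were hybridised to Illumina MouseRef-8 bead arrays. There were 4 vehicle control samples, and 3 samples each of neurons kept in 10 nM rotenone for 8 h, for 15 h and for 24 h. All groups share strain, tissue and culture age, and the titles of the control samples carry the tag EGCG beside Rot. When the vehicle samples were harvested is not stated in the labels, and drug and time in culture cannot be told apart in a change against control. No label says whether replicates are separate cultures, so the p-values cover only the spread between these samples, and the number of arrays limits the precision.

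Ionotropic glutamate receptors are tetramers that open a cation channel when glutamate binds: AMPA receptors carry most fast excitation, NMDA receptors admit calcium and need the obligatory subunit encoded by Grin1, and kainate receptors act on both sides of the synapse. GABA-A receptors are pentamers, in the most common form of alpha, beta and gamma subunits, that open a chloride channel, and glycine receptors are their closest relatives. Metabotropic glutamate receptors and the GABA-B receptor, whose ligand-binding subunit is encoded by Gabbr1, signal through G proteins. In immature cortical neurons the AMPA subunit encoded by Gria2 sets whether the channel admits calcium, and the glycine receptor subunit encoded by Glra2 is the main alpha subunit before birth.

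Of the 55 probes, 34 for 28 genes passed the filter on low signals, which asked for a detection p under 0.05 on at least 3 of the 13 arrays. The remaining 21 probes did not, 17 of them detected on no array and 4 on 1 or 2 arrays. For 15 genes no probe passed, among them Gabra2, Gabra4, Gabra5, Gabra6, Gabrg3, Glra1, Glra3, Glra4, Grik2, Grik3, Grin2a, Grin2b, Grin2d and Grm3. For Grin2b, the NMDA subunit typical of young cortex, the probe was detected on 2 of 3 arrays at 8 h and on no other array, with deposited signals between 36.4 and 61.2 over all 13. The signals of the Gabra2 probe lay between 35.7 and 49.0. Such a probe has no usable level here, which does not show that its transcript was absent. Of the failed probes 1 each was a further probe of Gabbr1, Glrb, Gria1 and Grik1, and these 4 genes are described from their other probes. Of the 34 probes, 30 were detected on every control array and 29 on every 8 h array, against 22 at 15 h and 19 at 24 h. None was undetected throughout the control or the 8 h group, while 7 were undetected on every 15 h array and 10 on every 24 h array.

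Mean probe signal per array was 325 to 405 in controls, 340 to 403 at 8 h, 255 to 287 at 15 h and 222 to 259 at 24 h, and 50.2% to 53.3% of probes were detected. At 15 h replicate 1 was the least like its group, with correlations of 0.975 and 0.973 to the other 2 arrays, which correlated at 0.997 with each other. Replicate 2 at 8 h correlated at 0.986 with both its partners, against 0.997 between those. In the cultures markers of several cell types were measured. Among 10 neuronal markers 7 were lower and 0 higher at 24 h, with a median log2 change of −0.84, and their summed normalised signal was 18519 to 21240 in controls, 19300 to 21335 at 8 h, 4850 to 8051 at 15 h and 6630 to 6864 at 24 h. Among 11 astrocyte markers 5 were higher and 2 lower at 24 h, and the summed signal was 14503 to 16474 in controls, 10228 to 14932 at 8 h, 30379 to 35998 at 15 h and 26791 to 28196 at 24 h. Of 7 detected microglial markers 5 were higher and 0 lower at 24 h, although Cx3cr1, Tmem119, P2ry12 and Csf1r did not pass the filter. Summed microglial signal was 3074 to 3247 at 24 h and 977 to 1081 in controls. Of 9 oligodendrocyte lineage markers 1 was higher and 6 lower at 24 h, with sums of 4459 to 4916 at 24 h and 11613 to 12688 in controls. Of 4 detected fibroblast markers 2 were higher and 1 lower at 24 h, with sums of 10071 to 11166 at 24 h and 1170 to 1535 in controls, and none of Col1a1, Col1a2, Col3a1 and Lum passed. Of 6 endothelial markers 2 passed, of which 1 was higher and 0 lower at 24 h, and Pecam1, Cdh5, Kdr and Tek did not. In bulk samples fewer cells of a type and less RNA per cell cannot be told apart, and the part of these markers in the receptor changes was not tested.

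Most receptor transcripts that could be measured were lower in the cultures treated for 15 h and 24 h, whereas at 8 h none passed the test. With limma, 0 of 34 probes were called at 8 h against control, where 0.286% of all 14345 tested probes were called, and 3 had an unadjusted p under 0.05. All 8 h arrays lay below all controls for 1 probe and above them for 2, as for 6.14% and 4.39% of all probes. At 15 h against control 21 of 34 were lower and 2 higher, while 23.7% of all probes were lower and 24.2% higher (47.9% in all). At 24 h against control 24 were lower and 2 higher, while 27.0% of all probes were lower and 25.9% higher (52.9% in all). All 24 h arrays lay below all controls for 25 members and above them for 3, as for 30.1% and 29.0% of all probes, and all 15 h arrays for 22 and 2, as for 24.2% and 24.3%. The members' median log2 change was −0.31 at 15 h and −0.36 at 24 h, beside 0.02 and 0.00 over all tested probes. With probes that no array of a group detected set at their bound, it was −0.22 at both times. Gabrd, Gabrg1, Gria4, Grin1 probe 1 and Grm8 passed the filter only through control and 8 h arrays. They could hardly be called other than lower at 15 h and 24 h, and the counts of lower probes include them. The shares of all probes come from the same filter. Changes are on the log2 scale of normalised signals to which an offset of 50 was added, which understates the change of weak signals, and the value after ± beside a change is its standard error in that fit. The labels place the samples on 2 chips, with all groups on both. Within the labels' chip 2, 21 probes were lower at 24 h, where 20.6% of all probes were lower. Within the labels' chip 1, 11 were lower at 15 h, beside 15.7% of all. Signals matched the deposited per-array profile at the position of another replicate of the same group for all 13 samples. Within the chips so matched, 24 were lower at 24 h on chip 2 (31.4% of all) and 15 at 15 h on chip 1 (14.1%). These comparisons had 2 arrays per group. The other chip held only 1 array of the rotenone group, and its counts are not given.

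The classes differed in how many of their probes were called. For GABA-A receptors all 9 tested probes were lower at both 15 h and 24 h, as was the single measured GABA-B probe, and both glycine receptor probes were lower at 24 h. Of 7 AMPA probes 5 were lower and 1 higher at 24 h, of 4 NMDA probes 2 were lower and 1 higher, and of 4 kainate probes 2 were lower. Of 6 metabotropic glutamate receptor probes 3 were lower at 24 h, and the delphilin probe was not called. Together, 12 of 12 GABA and glycine receptor probes were lower at 24 h with a median log2 change of −0.84, and 12 of 21 glutamate receptor probes were lower and 2 higher with a median of −0.26. With bounded probes at their bound these medians were −0.84 and −0.15. Gabrd, Gabrg1, Gria4, Grin1 probe 1 and Grm8, which passed the filter only through control and 8 h arrays, are among those lower. The difference between the classes was not tested.

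**Figure D1:**
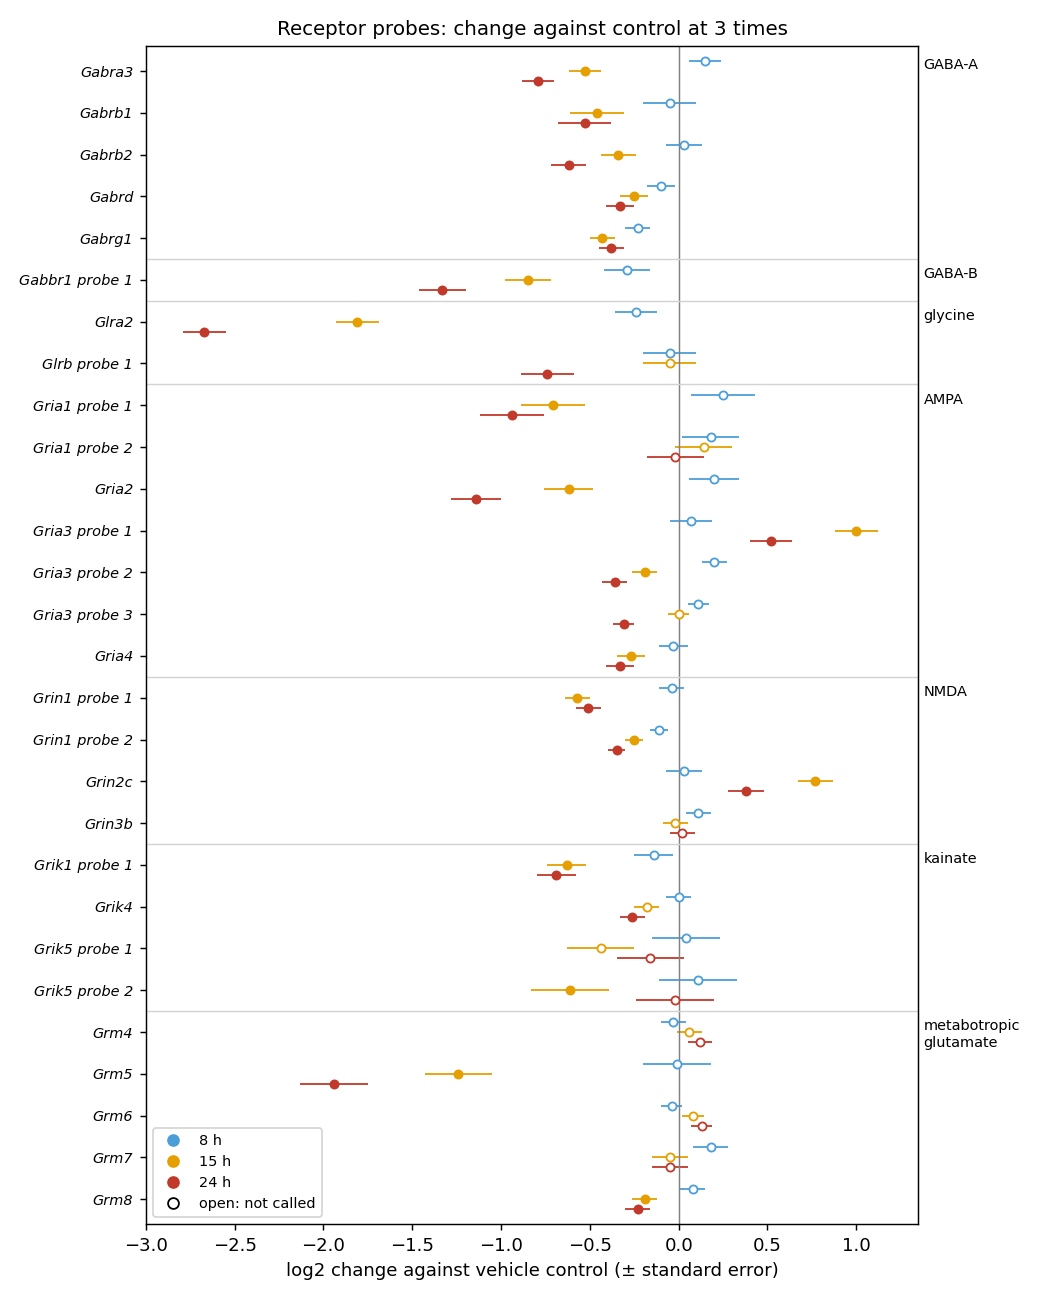
Log2 change against vehicle control (x axis, ± standard error) of 28 receptor probes that passed the filter, by receptor class, at 8 h, 15 h and 24 h of rotenone; filled points passed an adjusted p of 0.05. No 8 h point is filled, all 5 GABA-A probes drawn are filled and to the left of 0 at 15 h and 24 h, and Gria3 probe 1 and Grin2c are the 2 filled to the right. For probes undetected at a time the point marks only the fitted value.

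Promoter sequences (250 bases before to 50 after the start, RefSeq, GRCm38.p6) were held for 18 of the 28 tested genes, as 26 different windows. The windows of 3 genes that fell, among them the neighbours Gria2 and Glrb, and of Grin2c, 1 of the 2 genes with a probe that rose, are shown 5′ to 3′ on the gene's strand. Capitals mark GC boxes (GGGCGG on either strand) and matches on either strand to GGACAGC, the right-hand portion of the element bound by the repressor REST.
Gria2 promoter (chr3:80802786-80803085, minus strand): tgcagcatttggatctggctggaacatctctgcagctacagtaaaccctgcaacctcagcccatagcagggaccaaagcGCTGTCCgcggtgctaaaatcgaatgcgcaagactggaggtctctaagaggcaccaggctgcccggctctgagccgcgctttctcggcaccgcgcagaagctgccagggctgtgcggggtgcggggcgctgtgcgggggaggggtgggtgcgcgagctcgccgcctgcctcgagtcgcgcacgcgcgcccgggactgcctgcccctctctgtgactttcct
Glrb promoter (chr3:80913611-80913910, minus strand): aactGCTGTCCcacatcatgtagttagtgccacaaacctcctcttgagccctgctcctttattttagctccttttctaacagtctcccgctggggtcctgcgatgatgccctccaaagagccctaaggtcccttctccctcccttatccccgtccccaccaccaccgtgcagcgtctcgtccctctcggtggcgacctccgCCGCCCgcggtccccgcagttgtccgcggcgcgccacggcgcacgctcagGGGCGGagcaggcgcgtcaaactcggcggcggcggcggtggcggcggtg
Glra2 promoter (chrX:165327344-165327643, minus strand): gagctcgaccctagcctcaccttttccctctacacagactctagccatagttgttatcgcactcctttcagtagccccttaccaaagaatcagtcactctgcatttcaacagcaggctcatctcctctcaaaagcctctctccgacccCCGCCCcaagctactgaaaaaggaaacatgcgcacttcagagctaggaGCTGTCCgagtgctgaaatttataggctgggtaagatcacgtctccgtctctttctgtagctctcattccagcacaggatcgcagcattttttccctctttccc
Grin2c promoter (chr11:115267194-115267493, minus strand): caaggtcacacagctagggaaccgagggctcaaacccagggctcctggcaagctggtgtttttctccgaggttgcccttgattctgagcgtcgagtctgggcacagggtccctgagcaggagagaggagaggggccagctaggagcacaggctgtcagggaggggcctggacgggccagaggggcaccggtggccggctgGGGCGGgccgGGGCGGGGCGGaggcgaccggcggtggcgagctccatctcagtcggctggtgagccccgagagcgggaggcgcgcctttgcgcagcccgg
GGACAGC occurred in the windows of Gria2, Glrb and Glra2, 3 of 26 member windows (11.5%), against 6.59% of 32544 different promoter windows of the same length. The windows shown thus hold every member match to it. Windows of other genes that fell, among them Gabbr1, Gabra3 and Grin1, had no match, so the display does not link the motif to a fall. GC boxes occurred in 13 of 26 member windows and in 35.9% of all windows. Of the other motifs searched on both strands, TGANTCA (the AP-1 site) was in 3 of 26 member windows and 7.79% of all, and TGATGNAA (a C/EBP-ATF site) in 2, which are overlapping windows of the 1 gene Grm7, and in 3.91%. The NRF1 palindrome was in 1 and 0.974%, and TCAGCACC (the left-hand portion of the REST element) and the full cyclic AMP response element TGACGTCA were in 0 member windows and in 1.66% and 1.8% of all. The guanine and cytosine content was 65.7% for Gria2 and Glrb, 50.3% for Glra2 and 70% for Grin2c, against a median of 53% over all windows. These matches describe the letters only.

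Every tested GABA-A receptor probe was lower at 15 h and 24 h, and 5 of them, each for a gene of its own, are described singly. Gabra3, an alpha subunit expressed early in cortex, had normalised log2 levels of 7.07, 7.20, 7.11 and 7.06 in vehicle controls, 7.08, 7.43 and 7.27 at 8 h, 6.64, 6.59 and 6.50 at 15 h, and 6.31, 6.39 and 6.25 at 24 h. The 24 h arrays lay below the 15 h arrays and these below all controls and all 8 h arrays. Gabra3 fell at 15 h (−0.53 ± 0.09, adjusted p = 0.00011) and 24 h (−0.79 ± 0.09, adjusted p = 1.4e-06), and was detected on all 13 arrays.

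Gabrb2, a beta subunit abundant in adult brain, had levels of 6.71, 6.82, 6.84 and 6.66 in vehicle controls, 6.65, 7.02 and 6.68 at 8 h, 6.45, 6.41 and 6.39 at 15 h, and 6.12, 6.34 and 5.96 at 24 h. The 24 h arrays lay below the 15 h arrays, and these below all controls and 8 h arrays. Gabrb2 fell at 15 h (−0.34 ± 0.10, adjusted p = 0.0099) and 24 h (−0.62 ± 0.10, adjusted p = 6.5e-05), where 1 of 3 arrays detected it. Gabrb1, a beta subunit also found in glia, had levels of 9.88, 9.84, 9.70 and 9.68 in vehicle controls, 9.91, 9.26 and 10.00 at 8 h, 9.11, 9.43 and 9.41 at 15 h, and 9.21, 9.33 and 9.20 at 24 h. The 15 h and 24 h arrays overlapped one another and lay below all controls, and 8 h replicate 2 lay among them. Gabrb1 fell at 15 h (−0.46 ± 0.15, adjusted p = 0.019) and 24 h (−0.53 ± 0.15, adjusted p = 0.007). Its 15 h call was lost without control replicate 1 (−0.42, adjusted p = 0.05) and without 15 h replicate 1 (−0.35, adjusted p = 0.074).

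Gabrg1, a gamma subunit, had levels of 6.38, 6.38, 6.35 and 6.26 in vehicle controls, 6.14, 6.27 and 5.94 at 8 h, 5.97, 5.86 and 5.93 at 15 h, and 5.97, 6.06 and 5.87 at 24 h. No array at 15 h or 24 h detected it and all lay below the controls. It was at least 1.08-fold lower at 24 h (adjusted p = 0.00026; means 5.97 and 6.34) and at least 1.07-fold lower at 15 h (adjusted p = 0.00011; means 5.92 and 6.34). Gabrd, a subunit of receptors outside synapses, was likewise near background and at least 1.12-fold lower at 24 h (adjusted p = 0.0017; means 6.06 and 6.39). In the RefSeq gene order Gabrb1 lies beside Gabra4 and Gabrg1 beside Gabra2, alpha subunit genes whose probes did not pass.

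**Figure D2:**
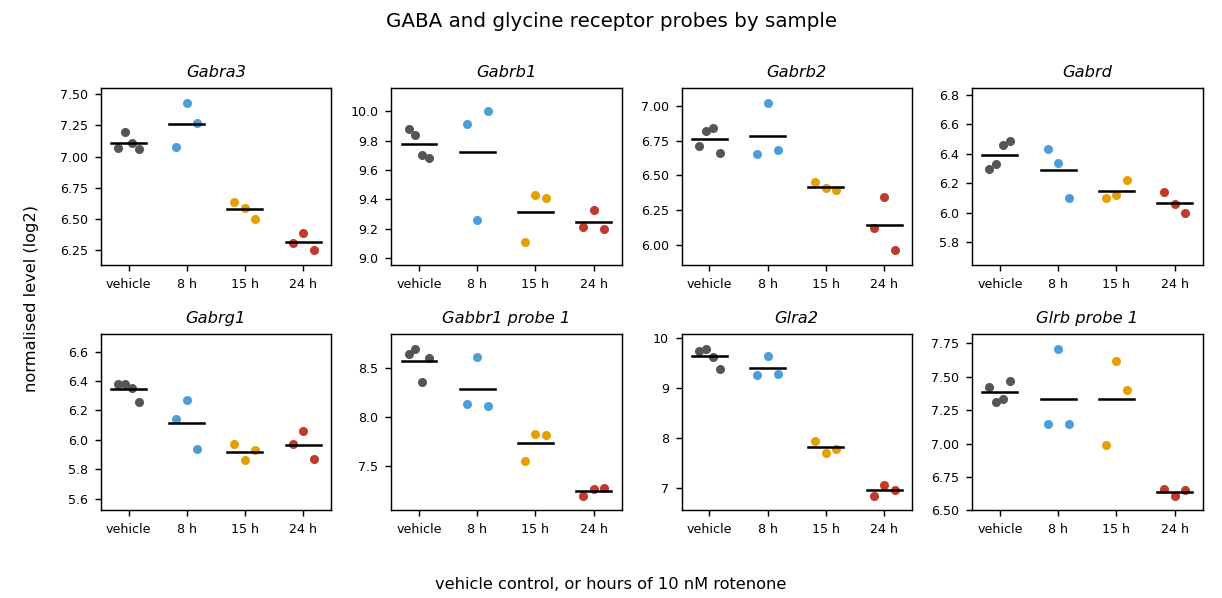
Normalised log2 level (y axis, scaled per panel) of 8 GABA and glycine receptor probes that passed the filter, in every sample of the vehicle, 8 h, 15 h and 24 h groups; bars are group means. In all 8 panels the 24 h points lie below all vehicle points, and in the Glrb panel the 15 h points span the vehicle points.

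The GABA-B and glycine receptors followed. Gabbr1 probe 1, for the ligand-binding GABA-B subunit, had levels of 8.64, 8.70, 8.36 and 8.60 in vehicle controls, 8.14, 8.61 and 8.12 at 8 h, 7.55, 7.83 and 7.82 at 15 h, and 7.20, 7.27 and 7.28 at 24 h. The 24 h arrays lay below the 15 h arrays, and the 15 h arrays below the controls, while 2 of the 3 arrays at 8 h were lower than every control. The change was −0.29 ± 0.13 at 8 h (adjusted p = 0.49), −0.85 ± 0.13 at 15 h (adjusted p = 5e-05) and −1.33 ± 0.13 at 24 h (adjusted p = 3e-07).

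Glra2, the alpha-2 glycine receptor subunit, had levels of 9.73, 9.78, 9.62 and 9.38 in vehicle controls, 9.26, 9.64 and 9.27 at 8 h, 7.95, 7.71 and 7.79 at 15 h, and 6.85, 7.07 and 6.97 at 24 h. The groups were separate from 15 h on. Glra2 fell at 15 h (−1.81 ± 0.12, adjusted p = 2.2e-08) and 24 h (−2.67 ± 0.12, adjusted p = 9.9e-11), and its deposited signal averaged 85.6 ± 9.0 at 24 h and 990 ± 210 in controls (SD, n = 3 and 4). Glrb probe 1, for the beta subunit that anchors glycine receptors to gephyrin, had levels of 7.42, 7.31, 7.33 and 7.47 in vehicle controls, 7.15, 7.71 and 7.15 at 8 h, 6.99, 7.62 and 7.40 at 15 h, and 6.66, 6.61 and 6.65 at 24 h. At 15 h the arrays spanned the control range, with replicate 1 below and replicate 2 above it, and all 24 h arrays were lower. Glrb changed by −0.05 ± 0.15 at 15 h (adjusted p = 0.82) and fell at 24 h (−0.74 ± 0.15, adjusted p = 0.00046). Without scaling between arrays its 15 h value was −0.41 (adjusted p = 0.038).

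Within the AMPA receptors the probes of different subunits, and of 1 subunit, went different ways. Gria2, the subunit that makes the channel impermeable to calcium, had levels of 11.99, 11.88, 12.17 and 11.90 in vehicle controls, 12.45, 11.72 and 12.37 at 8 h, 11.45, 11.30 and 11.34 at 15 h, and 10.89, 10.94 and 10.71 at 24 h. At 15 h and 24 h all arrays lay below the controls, and at 8 h replicate 2 was below them and the other 2 above. Gria2 fell at 15 h (−0.62 ± 0.14, adjusted p = 0.0017) and 24 h (−1.14 ± 0.14, adjusted p = 4.3e-06). The deposited signal averaged 1272 ± 49.0 at 24 h and 5015 ± 687 in controls (SD, n = 3 and 4), a ratio of 0.254, and with median scaling the 24 h change was −1.81.

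Gria1 probe 1, for the main calcium-permeable subunit of forebrain, had levels of 9.64, 9.60, 9.89 and 9.68 in vehicle controls, 10.16, 9.58 and 10.10 at 8 h, 8.53, 9.21 and 9.22 at 15 h, and 9.02, 8.84 and 8.44 at 24 h. The 15 h and 24 h arrays were all below the controls, with 15 h replicate 1 the lowest of its group, and the probe fell at both times (−0.71 ± 0.18, adjusted p = 0.0044, and −0.94 ± 0.18, adjusted p = 0.00043). Gria1 probe 2, for the same transcript NM_008165, changed by 0.14 ± 0.16 and −0.02 ± 0.16 and was not called. This second value turned with the scaling, to −0.36 at 15 h and −0.65 at 24 h with median scaling (adjusted p = 0.0053 at 24 h). The Gria1 probes thus differ, and no single direction holds for the gene under quantile normalisation.

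Gria3 probe 1 was 1 of the 2 probes that rose, with levels of 6.75, 6.74, 6.88 and 6.80 in vehicle controls, 6.79, 7.05 and 6.75 at 8 h, 8.13, 7.63 and 7.64 at 15 h, and 7.34, 7.33 and 7.28 at 24 h. All arrays at 15 h and 24 h lay above all controls, and 15 h replicate 1 was the highest. It rose by 1.00 ± 0.12 at 15 h (adjusted p = 4.1e-06), which held with median scaling (0.74), the authors' scaling (0.87) and no scaling (0.65), and by 0.52 ± 0.12 at 24 h (adjusted p = 0.0015), which was still called with the authors' scaling (0.33) but not with median scaling (0.23) or none (0.09). The deposited signals averaged 109 ± 6.42 at 24 h and 103 ± 10.1 in controls. Gria3 probe 3 had levels of 6.44, 6.47, 6.38 and 6.35 in vehicle controls, 6.51, 6.54 and 6.50 at 8 h, 6.37, 6.41 and 6.43 at 15 h, and 6.16, 6.10 and 6.05 at 24 h. Its 24 h arrays were all undetected and lay below the controls, at least 1.13-fold lower (adjusted p = 0.00023; means 6.10 and 6.41), and at 15 h the groups overlapped. Gria3 probe 2 fell at 24 h (−0.36 ± 0.07, adjusted p = 0.00061) and at 15 h (−0.19 ± 0.07), the 15 h call (adjusted p = 0.041) being lost when any 1 of the 3 arrays at 15 h was left out. All 3 probes are assigned to transcript NM_016886, so the gene has no single direction. Gria4 was undetected on every array at 15 h and 24 h and was at least 1.06-fold lower at 24 h (adjusted p = 0.0025).

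**Figure D3:**
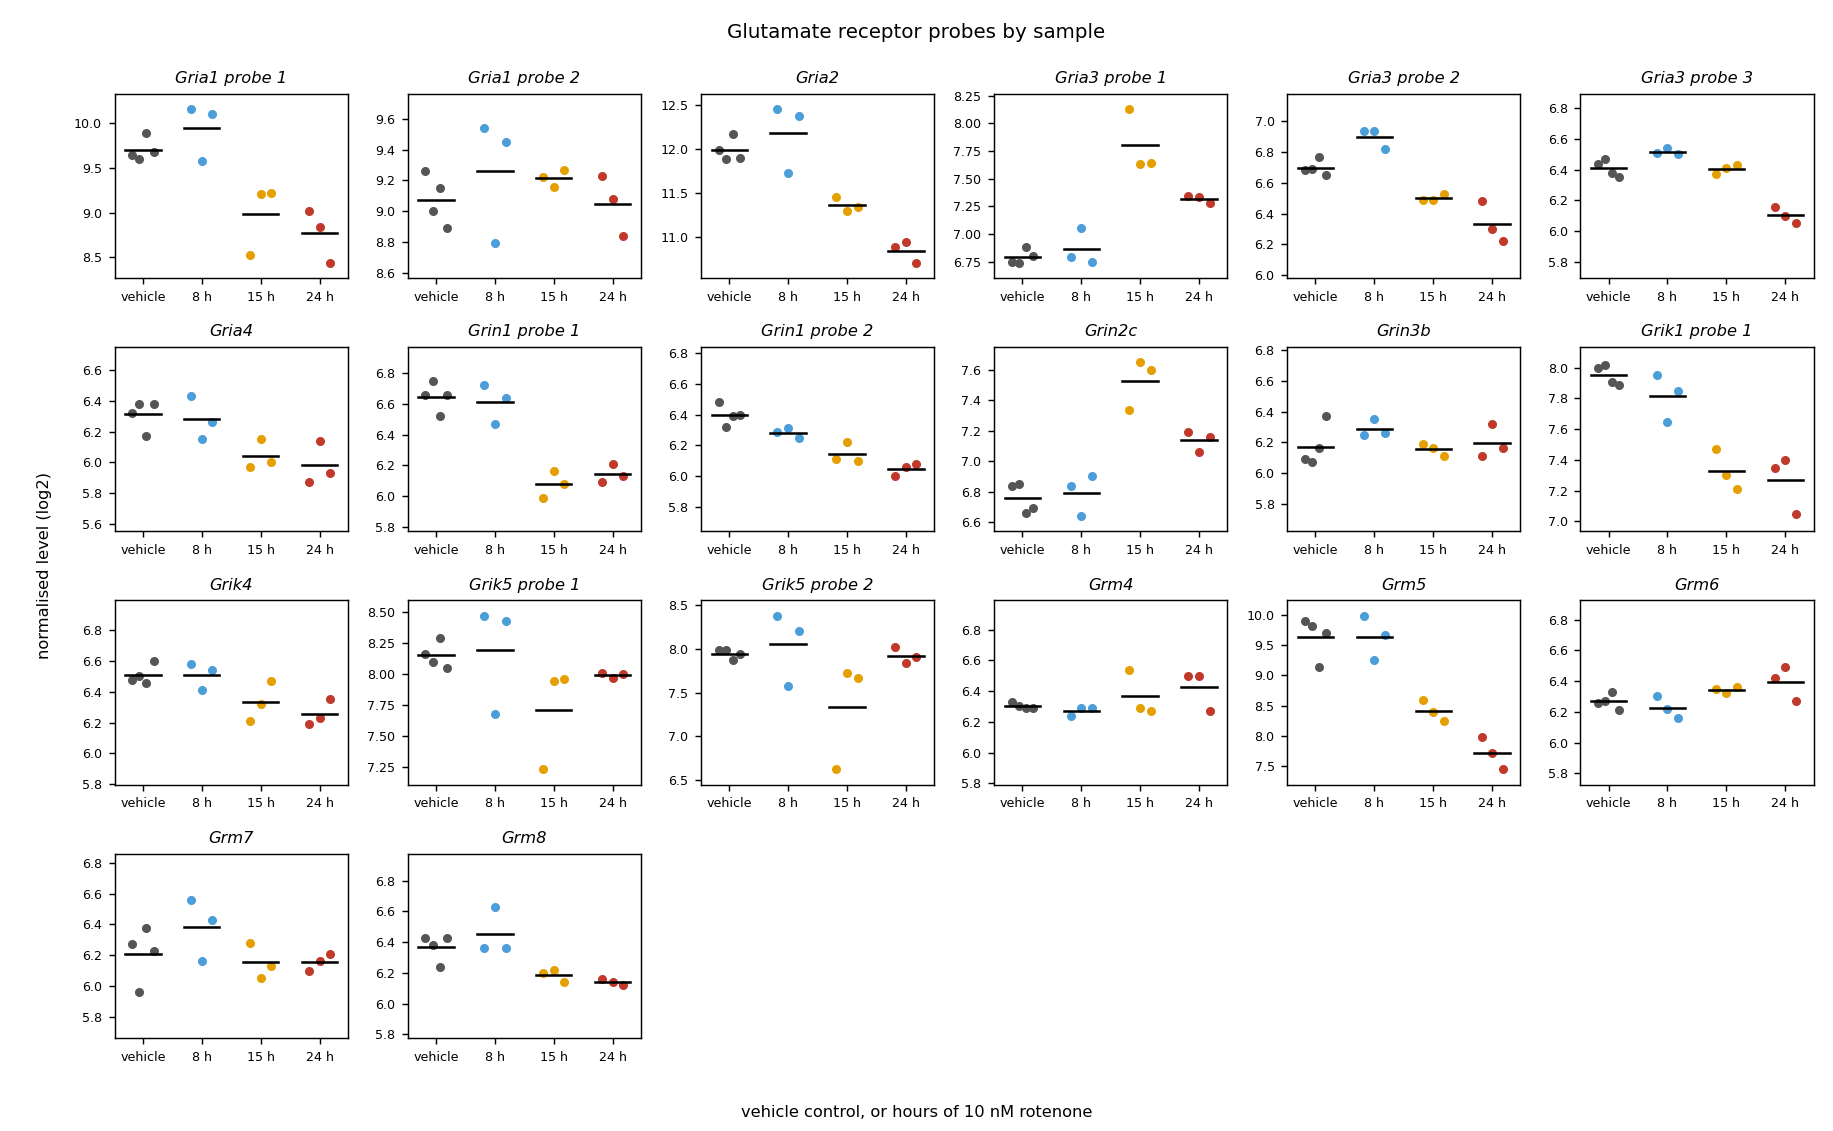
Normalised log2 level (y axis, scaled per panel) of 20 glutamate receptor probes that passed the filter, in every sample of the vehicle, 8 h, 15 h and 24 h groups; bars are group means. The 24 h points of Gria2 and Grm5 lie below all vehicle points, those of Gria3 probe 1 and Grin2c lie above them, and 15 h replicate 1 lies apart in both Grik5 panels.

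Of the NMDA receptor genes 3 could be measured. Grin1 probe 1, for the obligatory subunit, had levels of 6.66, 6.75, 6.52 and 6.66 in vehicle controls, 6.72, 6.47 and 6.64 at 8 h, 5.99, 6.16 and 6.08 at 15 h, and 6.09, 6.21 and 6.13 at 24 h. No array at 15 h or 24 h detected it, all lay below the controls, and it was at least 1.34-fold lower at 24 h (adjusted p = 2.5e-05; means 6.14 and 6.65) and at least 1.33-fold lower at 15 h (adjusted p = 9.9e-06). Grin1 probe 2 had levels of 6.48, 6.32, 6.39 and 6.40 in vehicle controls, 6.29, 6.31 and 6.25 at 8 h, 6.11, 6.22 and 6.10 at 15 h, and 6.00, 6.06 and 6.08 at 24 h. It was lower too, with a change of −0.25 ± 0.05 at 15 h (adjusted p = 0.0012) and at least 1.12-fold lower at 24 h (adjusted p = 5.4e-05; means 6.05 and 6.40). Grin2c, a subunit best known from the adult cerebellum and from astrocytes, had levels of 6.84, 6.85, 6.66 and 6.69 in vehicle controls, 6.84, 6.64 and 6.90 at 8 h, 7.34, 7.65 and 7.60 at 15 h, and 7.19, 7.06 and 7.16 at 24 h. The 15 h arrays were the highest, the 24 h arrays next, and neither overlapped the controls. Grin2c rose by 0.77 ± 0.10 at 15 h (adjusted p = 1e-05) and 0.38 ± 0.10 at 24 h (adjusted p = 0.0046). The 24 h rise was not called with median scaling (0.12) or the authors' scaling (0.19), and without scaling its direction turned (−0.02). Summed astrocyte marker signal, given above, was also higher at both times, and its part in this rise was not tested. Grin3b, detected on 5 of 13 arrays, changed by 0.02 ± 0.07 at 24 h (adjusted p = 0.82).

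Kainate receptors had 4 tested probes for 3 genes. Grik1 probe 1 had levels of 8.00, 8.02, 7.91 and 7.89 in vehicle controls, 7.95, 7.65 and 7.85 at 8 h, 7.47, 7.30 and 7.21 at 15 h, and 7.35, 7.40 and 7.05 at 24 h. The 15 h and 24 h arrays overlapped each other and lay below all others, with changes of −0.63 ± 0.11 (adjusted p = 0.00023) and −0.69 ± 0.11 (adjusted p = 7.3e-05). Grik4, a high-affinity kainate subunit, had levels of 6.48, 6.50, 6.46 and 6.60 in vehicle controls, 6.58, 6.41 and 6.54 at 8 h, 6.21, 6.32 and 6.47 at 15 h, and 6.19, 6.23 and 6.35 at 24 h. It was lower at 24 h (−0.26 ± 0.07, adjusted p = 0.0077), where 1 of 3 arrays detected it. Grik5 probe 1, for the other high-affinity subunit, had levels of 8.16, 8.10, 8.29 and 8.05 in vehicle controls, 8.47, 7.68 and 8.43 at 8 h, 7.23, 7.94 and 7.96 at 15 h, and 8.01, 7.97 and 8.00 at 24 h. The 24 h arrays lay just below the controls, and the 15 h group held 1 array far below the rest. Grik5 probe 1 changed by −0.44 ± 0.19 at 15 h (adjusted p = 0.062) and −0.16 ± 0.19 at 24 h (adjusted p = 0.51). At 15 h it was called lower with median scaling (−0.81, adjusted p = 0.0048), the authors' scaling (−0.87, adjusted p = 0.0086) and no scaling (−0.90, adjusted p = 0.0016), and at 24 h with the same 3, at −0.67, −0.64 and −0.80 (adjusted p = 0.014, 0.037 and 0.0031). Grik5 probe 2 was lower at 15 h (−0.61 ± 0.22, adjusted p = 0.033), a call that was lost without 15 h replicate 1 (−0.25, adjusted p = 0.23), and at 24 h its change was −0.02 ± 0.22. That 24 h value was −0.52 with median scaling (adjusted p = 0.066) and −0.65 without scaling (adjusted p = 0.017).

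Of the 6 tested metabotropic glutamate receptor probes Grm5 had the largest fall. Grm5, a group I receptor that raises calcium and is abundant in young cortex, had levels of 9.91, 9.82, 9.14 and 9.71 in vehicle controls, 9.99, 9.26 and 9.67 at 8 h, 8.59, 8.39 and 8.24 at 15 h, and 7.98, 7.71 and 7.44 at 24 h. The groups from 15 h on were separate from each other and from the controls. Grm5 fell at 15 h (−1.24 ± 0.19, adjusted p = 6.4e-05) and 24 h (−1.94 ± 0.19, adjusted p = 4e-07), and its deposited signal averaged 144 ± 17.7 at 24 h and 1019 ± 282 in controls (SD, n = 3 and 4). Grm8, a group III receptor, had levels of 6.43, 6.38, 6.24 and 6.43 in vehicle controls, 6.36, 6.63 and 6.36 at 8 h, 6.20, 6.22 and 6.14 at 15 h, and 6.16, 6.14 and 6.12 at 24 h. It was detected on no 15 h or 24 h array and was at least 1.10-fold lower at both times (adjusted p = 0.042 and 0.012), and its 15 h call was lost when any single array at 15 h or at 24 h was left out. Grm6, a group III receptor best known from the retina, had levels of 6.26, 6.27, 6.33 and 6.21 in vehicle controls, 6.30, 6.22 and 6.16 at 8 h, 6.35, 6.32 and 6.36 at 15 h, and 6.42, 6.49 and 6.27 at 24 h. Each rotenone group overlapped the controls. Grm4, Grm6 and Grm7, all of group III, were not called at any time against control, with 24 h changes of 0.12 ± 0.07, 0.13 ± 0.06 and −0.05 ± 0.10. The delphilin probe changed by 0.32 ± 0.14 at 24 h (adjusted p = 0.071), and its direction turned with median scaling (−0.05) and without scaling (−0.18).

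At 8 h the receptor probes were close to control, with changes between −0.29 (Gabbr1 probe 1) and 0.25 (Gria1 probe 1). In the fit with array weights 5 of 34 probes were higher and 4 lower, while 10.9% of all probes were higher and 10.3% lower. That fit gave low weights to 8 h replicate 2 (0.28), 15 h replicate 1 (0.12) and control replicates 3 and 4 (0.421 and 0.571), and 1.90 and 1.79 to the other 8 h arrays. Those higher were both Gria1 probes (0.44 and 0.32), Gria2 (0.40), Gria3 probe 2 (0.20) and Grm7 (0.31), and those lower included Gabbr1 (−0.47), Glra2 (−0.41) and Gabrg1 (−0.31). Grm7 was detected on 2 of 3 arrays at 8 h and Gabrg1 on 1 of 3. With 8 h replicate 2 alone left out, 0 probes were higher and 1 was lower, Gabrg1 (−0.31, adjusted p = 0.05). In that fit 0.600% of all probes were higher and 0.565% lower.

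Between consecutive times, 19 of 34 probes were lower and 2 higher at 15 h against 8 h, while 24.4% of all probes were lower and 24.1% higher (48.5% in all). At 24 h against 15 h, 10 were lower and 0 higher with limma (15 had an unadjusted p under 0.05), while 9.31% of all probes were lower and 10.8% higher (20.1% in all). The 6 probes called lower in each of these steps and against control at both times included Glra2, Gabbr1 probe 1, Gria2 and Grm5. Gria3 probe 1 and Grin2c rose at 15 h against 8 h (0.93 ± 0.13 and 0.74 ± 0.11) and were lower again at 24 h against 15 h (−0.48 ± 0.13 and −0.40 ± 0.11). Against control, 20 probes were lower at both times, 4 at 24 h but not at 15 h (among them Glrb probe 1, Gria3 probe 3 and Grik4), 1 at 15 h only (Grik5 probe 2), 2 were higher at both and 7 were called at neither. How many of all tested probes followed each of these patterns, including calls in both steps, was not counted. The pattern counts therefore cannot show a trait particular to the receptors. The times share the same controls, and the 15 h and 24 h changes are given side by side for that reason.

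The balance between subunits that can replace or complement each other was measured as the difference of 2 log2 levels within an array, and tested over all 13 samples with an exact permutation test across the 4 groups. Of 22 listed pairs 11 could be measured, and p-values were adjusted over these 11 (the statistic is an F ratio, which takes either direction, and the smallest possible p is 5e-06). In 3 pairs both probes were detected on all 13 arrays. Glra2 minus Glrb shifted by −1.76 at 15 h and −1.92 at 24 h from its control mean (adjusted p = 0.0018), with single arrays between −2.06 and −1.79 at 24 h and between −0.33 and 0.23 in controls. Gria3 minus Gria2, with Gria3 read by its probe 1, shifted by 1.62 at 15 h and 1.66 at 24 h (adjusted p = 0.0024), with arrays between 1.58 and 1.76 at 24 h and between −0.10 and 0.09 in controls. The 8 h arrays spread more widely, at −0.47, 0.52 and −0.43. Gria1 minus Gria2, with Gria1 read by its probe 1, shifted by −0.09 at 15 h and 0.20 at 24 h (adjusted p = 0.66), with arrays between 0.01 and 0.41 at 24 h and between −0.07 and 0.06 in controls. The AMPA balances depended on the probe, in alternatives chosen after seeing the data, each with the exact permutation test adjusted over the 11 pairs. With Gria1 read by its probe 2, Gria1 minus Gria2 shifted by 0.76 at 15 h and 1.12 at 24 h and passed the threshold (adjusted p = 0.00057). With Gria3 read by its probe 2, detected on all 13 arrays, Gria3 minus Gria2 shifted by 0.43 and 0.78 (adjusted p = 0.0089). Its direction thus held and its size at 24 h was smaller. Read by probe 3, it shifted by 0.61 and 0.83 (adjusted p = 0.0046). No 24 h array detected probe 3, so its own fall is only partly seen, and neither that 24 h shift nor that p decides the direction.

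**Figure D4:**
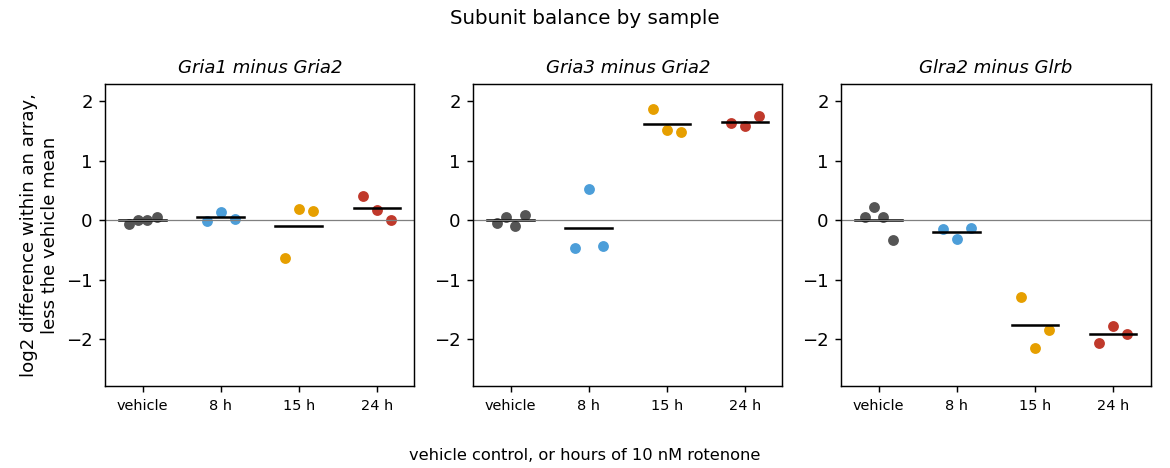
Difference of 2 normalised log2 levels within each array, less its mean in vehicle controls (y axis), for Gria1 minus Gria2, Gria3 minus Gria2 and Glra2 minus Glrb, each gene read by its brightest probe; points are samples and bars group means. Gria3 minus Gria2 lies between 1.49 and 1.87 at 15 h and between 1.58 and 1.76 at 24 h, and Glra2 minus Glrb lies below all vehicle points at both times.

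In the other 8 pairs at least 1 probe was near or below background in some group, so that any fall of it is at most partly seen. Among these, Grm7 minus Grm5 shifted by 1.89 at 24 h (adjusted p = 0.00071, exact permutation test) and Gria4 minus Gria2 by 0.81 (adjusted p = 0.0018). No 24 h array detected Grm7 or Gria4. These 2 shifts therefore mainly restate the falls of Grm5 (−1.94) and Gria2 (−1.14) and cannot decide whether the balance changed.

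Scaling between arrays moved the members unequally. From quantile normalisation to median scaling the 24 h change of Gria2 moved from −1.14 to −1.81 and that of Gria1 probe 2 from −0.02 to −0.65. Those of Gabrd (−0.33 and −0.32), Gria3 probe 3 (−0.31 under both) and Grm8 (−0.23 under both), all near background, hardly moved. Under quantile normalisation the median over all probes was 0.02 at 15 h and 0.00 at 24 h. It was −0.14 and −0.23 with median scaling, −0.16 and −0.23 with the authors' normalised values, and −0.23 and −0.37 without scaling. The members' median less that of all probes was −0.32 at 15 h and −0.36 at 24 h under quantile normalisation, −0.25 and −0.30 with median scaling, and −0.59 and −0.71 with neqc, which takes the background from the detection values and also scales by quantiles. Among calls over all probes at 15 h, 50.6% were higher under quantile normalisation and 23.8% with median scaling. At 24 h 26 members were lower with median scaling, while 47.1% of all probes were lower and 12.8% higher, 26 with the authors' values (44.3% and 13.9%) and 27 without scaling (58.9% and 7.72%). The counts of members higher were 0, 1 and 0.

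**Figure D5:**
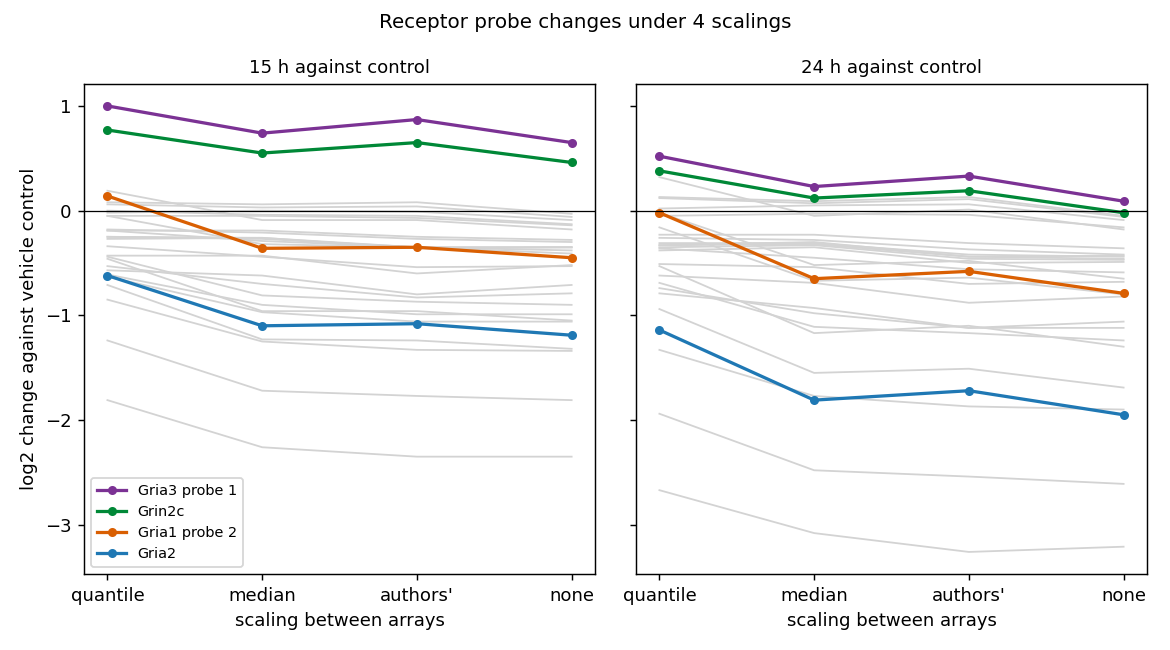
Log2 change against vehicle control (y axis) of 29 receptor probes that passed the filter under 4 scalings between arrays (x axis), at 15 h and 24 h; grey lines are the other probes. Gria2 lies below 0 under every scaling, Gria3 probe 1 and Grin2c lie above 0 at 15 h under all 4, and at 24 h Grin2c reaches −0.02 without scaling.

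Genes whose products accompany the receptors were examined as 5 lists, described by their counts beside the 27.0% of all tested probes that were lower and the 25.9% higher at 24 h. Of 16 tested AMPA receptor partners 11 were lower and 1 higher at 24 h, with a median of −0.52. Nsf, an ATPase that binds the Gria2 product and keeps it at the surface, fell by 1.50 ± 0.13 (adjusted p = 6.4e-08), and Cacng5, of the auxiliary TARP family, fell by 0.79 ± 0.08 (adjusted p = 9.1e-07). Abhd6, a lipase that restrains surface delivery, rose by 0.34 ± 0.12 (adjusted p = 0.029) but stood at −0.12 with median scaling and −0.26 without scaling.

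Of 17 postsynaptic scaffold genes 13 were lower and 2 higher at 24 h, with a median of −0.78. Dlg3 (SAP102), a scaffold of immature synapses, fell by 1.65 ± 0.11 (adjusted p = 3.8e-09) and the adhesion gene Nlgn3 fell by 1.57 ± 0.12 (adjusted p = 1.3e-08). Dlg1 (SAP97) rose by 0.63 ± 0.09 at its brighter probe (adjusted p = 2e-05) and stood at 0.16 at the other, and Homer3 rose by 0.23 ± 0.09 (adjusted p = 0.032) but stood at −0.11 with median scaling and −0.24 without.

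Of 9 inhibitory synapse partners 5 were lower and 2 higher at 24 h, with a median of −0.44. Gphn, gephyrin, the scaffold under glycine and GABA-A receptors, had a log2 change of −1.11 ± 0.09 at its brighter probe (adjusted p = 6.2e-08) and −0.16 at the other. Nlgn2, the adhesion protein of inhibitory synapses, fell by 1.50 ± 0.15 (adjusted p = 5.4e-07). Gabarap, which links GABA-A receptors to the cytoskeleton, rose by 0.65 ± 0.10 (adjusted p = 2.6e-05) but stood at 0.02 with median scaling and −0.11 without. The chloride importer gene Slc12a2 rose by 0.60 ± 0.19 (adjusted p = 0.013) and stood at −0.07 and −0.21 under these scalings.

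Of 12 genes of transmitter synthesis and transport 5 were lower and 3 higher at 24 h, with a median of 0.10. The vesicular transporters of glutamate (Slc17a6, −3.08 ± 0.14, adjusted p = 7.3e-11) and of GABA and glycine (Slc32a1, −2.68 ± 0.12, adjusted p = 7e-11) fell. The glycine transporter gene Slc6a9 rose by 1.82 ± 0.15 (adjusted p = 6.4e-08) and the glial glutamate transporter gene Slc1a3 by 0.86 ± 0.13 (adjusted p = 3.5e-05), and both stayed above 0 with median scaling (1.14 and 0.49). Of 12 other ligand-gated channel genes 4 were lower and 5 higher, with a median of 0.03. The nicotinic subunits Chrnb2 (−1.24 ± 0.10, adjusted p = 2e-08) and Chrna4 (−1.60 ± 0.19, adjusted p = 2.7e-06) fell. Chrnb1, a nicotinic subunit of muscle, was undetected in controls and at least 1.41-fold higher at 24 h (adjusted p = 1.3e-07; means 6.73 and 6.07). A first probe of P2rx3, an ATP-gated channel, was undetected in controls and at least 1.28-fold higher at 24 h (adjusted p = 8.1e-05; means 6.58 and 6.05), and its other probe changed by −0.12.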

How the data were processed

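Vehicle control (4 samples) and rotenone-treated neurons (3 samples at each of 3 times) were measured on Illumina MouseRef-8 version 1.1 arrays. The deposited intensity of each probe was the bead-averaged, unnormalised signal, exported from BeadStudio 3.2.6 per the file headers. The deposited normalised value was a ratio, the intensity divided by its array's median and then by the control median, which recomputation matched to a relative difference of 3.75e-07. The deposited detection fraction of each array came from a second BeadStudio profile and was joined by matching signals (tolerance 0.05, 98.6% identical). The detection p was meant to be read from the signal table and was taken from this profile instead; its 102 columns of other values were not used.

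Intensities were background corrected (normexp, offset 50), quantile normalised and tested on the log2 scale with limma 3.58.1 in R 4.3.3, in 1 fit of the 4 groups with 9 residual degrees of freedom, after keeping 14345 probes detected at p under 0.05 on at least 3 arrays. P-values were Benjamini-Hochberg adjusted per comparison over all probes kept, with a threshold of 0.05, and the procedure was tested on simulated data. Subunit balance used an exact permutation test over 1201200 layouts. For a probe that no array of a group detected, the bound was taken against the lowest detected signal.

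Values in every sample are given for the 3 members of each class with the smallest adjusted p at 24 h, for members called against their class, and for Gria1, Gria2, Grin1, Grm5, Gabbr1 and Glrb. For Grin2b and Gabra2, which did not pass the filter, only the range of deposited signals is given. Some members are not reported singly here and stay in the counts, so the next by p in their class are given. Of each partner list the text names the 2 called genes with the smallest p in each direction. The members, lists and motifs were chosen with earlier results of these data known. Replicate numbers were not used to pair the samples. Deviations correlated above 0.1 in 6 of 18 same-number pairs (range −0.113 to 0.192) and in 7 of 45 other-number pairs (range −0.226 to 0.21). The medians were −0.006485 and −0.00812. As the signals matched the position of another replicate, these numbers cannot settle whether samples were paired. Alternatives changed the background correction, the scaling, the detection filter, the chip, the array weights and the samples.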

Additional observations from a re-analysis of the deposited data

Results flagged for a closer look

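Tests of the difference between rotenone times are given here for 17 receptor probes whose change against control at 15 h differed from that at 8 h, and for 8 whose change at 24 h differed from that at 15 h. Both times of a step share the controls, so each difference is that of the later against the earlier rotenone group. At 15 h against 8 h the GABA-A probes differed by −0.69 (Gabra3), −0.40 (Gabrb1), −0.37 (Gabrb2) and −0.20 (Gabrg1) on the log2 scale. Gabbr1 probe 1 differed by −0.56 and Glra2 by −1.57. The AMPA probes differed by −0.96 (Gria1 probe 1), −0.82 (Gria2), 0.93 (Gria3 probe 1), −0.40 (Gria3 probe 2) and −0.24 (Gria4). Of the other glutamate receptors, Grin1 probe 1 differed by −0.54, Grin2c by 0.74, Grik1 probe 1 by −0.49, Grik5 probe 2 by −0.71, Grm5 by −1.23 and Grm8 by −0.26. Of these, Gabrg1, Gria4, Grin1 probe 1 and Grm8 were undetected on every 15 h array, and their values are fitted values near background that have only a bound. Grin1 probe 1 was at least 1.29-fold lower at 15 h than at 8 h, Grm8 at least 1.16-fold and Gria4 at least 1.03-fold, and Gabrg1 has no bound above 1.

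At 24 h against 15 h the differences were −0.48 for Gabbr1 probe 1, −0.86 for Glra2 and −0.70 for Glrb probe 1. They were −0.52 for Gria2, −0.48 for Gria3 probe 1, −0.30 for Gria3 probe 3, −0.40 for Grin2c and −0.70 for Grm5. Gria3 probe 3 was undetected on every 24 h array, and was at least 1.13-fold lower at 24 h than at 15 h. None of the 34 probes had a control array far outside the other 3 by Dixon's test, which chance flags in about 1 of 20 groups.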

How the results depend on the processing

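The count of receptor probes lower at 24 h was 24 to 27 under every background correction, scaling and detection filter tried. In those fits 15.8% (no detection filter) to 58.9% (no scaling) of all probes were lower. The count was 24 whichever replicate was left out, while 23.5% to 30.0% of all probes were lower. With the brightest probe per gene it was 20 of 28, while 27.4% of all probes were lower. The count higher at 24 h was 0 with median scaling (12.8% of all probes) and without scaling (7.72%), and 1 with the authors' normalised values (13.9%). With array weights it was 4, while 32.2% of all probes were higher. It ranged from 2 to 4 over omitted replicates, 4 without 24 h replicate 3, while 22.6% to 29.1% of all probes were higher. Grin2c at 24 h turned to −0.02 without scaling, where the median of all probes was −0.37. At 15 h the count lower was 11 within the labels' chip 1, where 15.7% of all probes were lower. Over omitted replicates it was 17 to 23, and 2 were higher in each of these fits. Of all probes 21.3% to 24.8% were lower and 21.1% to 24.9% higher in them. The chips hold fewer samples, and most counts with 1 array in a compared group are not given. Exceptions below are the counts within matched chip 2 at 8 h, and both chip counts at 15 h against 8 h. In these each rotenone group held 1 array, so they cannot decide a change, and no conclusion is drawn from them. At 8 h the counts were 6 higher and 3 lower within matched chip 2, 5 and 4 with array weights, and 0 higher and 0 to 1 lower over omitted replicates, 1 without 8 h replicate 2. At 15 h against 8 h, 4 were higher within matched chip 2 and 10 lower within the labels' chip 2, and omitted replicates gave 2 higher and 15 to 20 lower. At 24 h against 15 h, 2 were higher and 16 lower with array weights, while 19.5% and 21.1% of all probes were. Omitted replicates gave 0 to 1 higher, 1 without 15 h replicate 1 or 2, and 7 to 12 lower. With the replicate number as a block 17 were lower at 15 h, while 22.6% of all probes were lower. In that fit 24 were lower and 2 higher at 24 h, while 25.8% and 24.3% of all probes were.

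The subunit balances given above kept their side of the threshold in every alternative tried except 1 chosen after seeing the data: Gria1 minus Gria2 at 24 h was 1.12 and passed with Gria1 read by its probe 2. Over all probes at 8 h, 14 were higher and 27 lower, against 1567 and 1474 with array weights, and the cause was not tested. Signals near background limit Gabrd, Gabrg1, Gria4, Grm7, Grm8 and Grin3b.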
